A study of Mus musculus with 12 samples.

Results

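GABAergic interneurons were followed through 10 genes, chosen by symbol: Gad1, Gad2, Slc32a1, Sst, Npy, Vip, Cck, Pvalb, Calb2 and Reln. They were measured by 13 of the 25697 probes on each of 12 expression arrays, and every probe that carries one of these symbols was taken. RNA came from the hippocampus and the cortex of male 3×TgAD mice. All mice carried the transgenes of this Alzheimer's disease model, so no wild-type or non-transgenic tissue was among the groups. The AMI groups had amitriptyline hydrochloride in their drinking water, 100 µg per g of body weight, for 4 months from the age of 14 months, and the vehicle groups did not. Tissue was taken at 18 months, with 3 arrays per treatment in each tissue, 1 array per sample. No source links a sample to a mouse, so the p-values measure the spread between these samples. The tissue was not sorted, and fewer interneurons cannot be told apart from less RNA per interneuron.

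Inhibitory interneurons make GABA from glutamate with 2 glutamate decarboxylases, encoded by Gad1 and Gad2, and load it into synaptic vesicles with the transporter that Slc32a1 encodes. Interneurons are sorted into classes by the neuropeptides and calcium-binding proteins they contain. Somatostatin (Sst) and neuropeptide Y (Npy) often mark dendrite-targeting cells, parvalbumin (Pvalb) marks fast-spiking cells around the cell body, vasoactive intestinal peptide (Vip) and calretinin (Calb2) mark cells that largely contact other interneurons, and cholecystokinin (Cck) marks another basket cell class. Cck and Calb2 are not limited to interneurons, since many excitatory neurons make Cck and calretinin occurs in mossy cells and immature neurons of the dentate gyrus. Reelin (Reln) is a secreted glycoprotein made by cortical and hippocampal interneurons and by Cajal-Retzius cells.

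Of the 10 genes, 9 could be measured. The only Gad2 probe was not detected on any of the 12 arrays, with detection p-values between 0.825 and 0.991, while both Gad1 probes were detected on all 12. Of the Vip probes, ILMN_2943387 was detected on all 12 arrays and ILMN_1243637 on 0, with detection p-values between 0.208 and 0.754. The first 30 of the 50 bases of these probes are shown, because which probe measured a gene decided whether the gene could be followed, and capitals mark G and C.
Gad2, ILMN_2668908: taaatGtatttGtaGtttGttCCaGaataa
Vip, ILMN_1243637, chr10:4699683-4699732: CGaaGGaaaaCaaCCaCGtGattaCattat
Vip, ILMN_2943387, chr10:4699009-4699058: CtCCCataGtCaCtCaCaatGatattttGt
The Gad2 probe held 26% G and C against a median of 52% over all 25697 probes, and 1.18% of probes held less. The undetected Vip probe held 36% and the detected one 40%. Whether base composition had a part in these detection calls was not tested. Coordinates are those of the array's annotation, on the strand it gives as minus for Vip. It names no genome build and gives no position for the Gad1 and Gad2 probes.

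Both Gad1 probes read nearly the same stretch and were not independent measurements. Their values still differed. The log2 ratio of ILMN_2621743 to ILMN_1234988 within an array was -0.70 to -0.34 in the cortex and -0.50 to -0.20 in the hippocampus. The probes overlapped by 49 bases, displaced by 1 base, as the first 30 bases of each show with the shared bases in capitals.
Gad1, ILMN_2621743: tCTCTGTGACTCGCTTAGCTGAAACCTAAG
Gad1, ILMN_1234988: CTCTGTGACTCGCTTAGCTGAAACCTAAGg
The brighter probe of a gene, ILMN_1234988 for Gad1 and ILMN_2827729 for Calb2, is given where no probe is named, and the other is called the second probe. Detected members were bright: the 9 leading probes were brighter than 81.6% to 98.7% of all probes in the hippocampus and 88.2% to 99.0% in the cortex. The Calb2 second probe was dimmer, above 71.2% and 74.5% of probes.

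Arrays detected 49.0% to 51.7% of probes each, and the lowest Pearson correlation between replicate arrays was 0.986. Levels are log2 signals after z normalization of each array, on a scale whose 0 is the mean of all probes of that array. Because each probe binds its target differently, levels were compared between samples and not between genes. Neuronal tissue was present in both sets, with a mean level over 7 glutamatergic neuron markers of 2.31 to 2.54 on hippocampal arrays and 2.72 to 3.03 on cortical arrays. Prox1, a transcription factor of dentate granule cells and of some interneurons, was 1.17 ± 0.11 (SE) log2 units higher in the hippocampus (adjusted p = 5.02e-06, limma). Markers of the striatum, which lies beneath the cortex and consists largely of GABAergic neurons, were also read. All 5 that passed the detection filter, of 6 on the array, were lower in the hippocampus, with Ppp1r1b at a log2 difference of -2.49 and Rgs9 at -2.22. Their mean level was 1.501 to 1.98 on cortical arrays and 0.19 to 0.55 on hippocampal arrays, and the summed signal was 3029 to 4556 against 730.4 to 1568. On each array 0 to 2 of the 6 were not detected. Among other cell types, 6 of 6 microglia markers were called higher in the hippocampus (median 0.46) and 4 of 6 oligodendrocyte markers lower (median -0.42). The part of striatal tissue and of these cell types in the differences between tissues below was not tested.

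**Figure D1:**
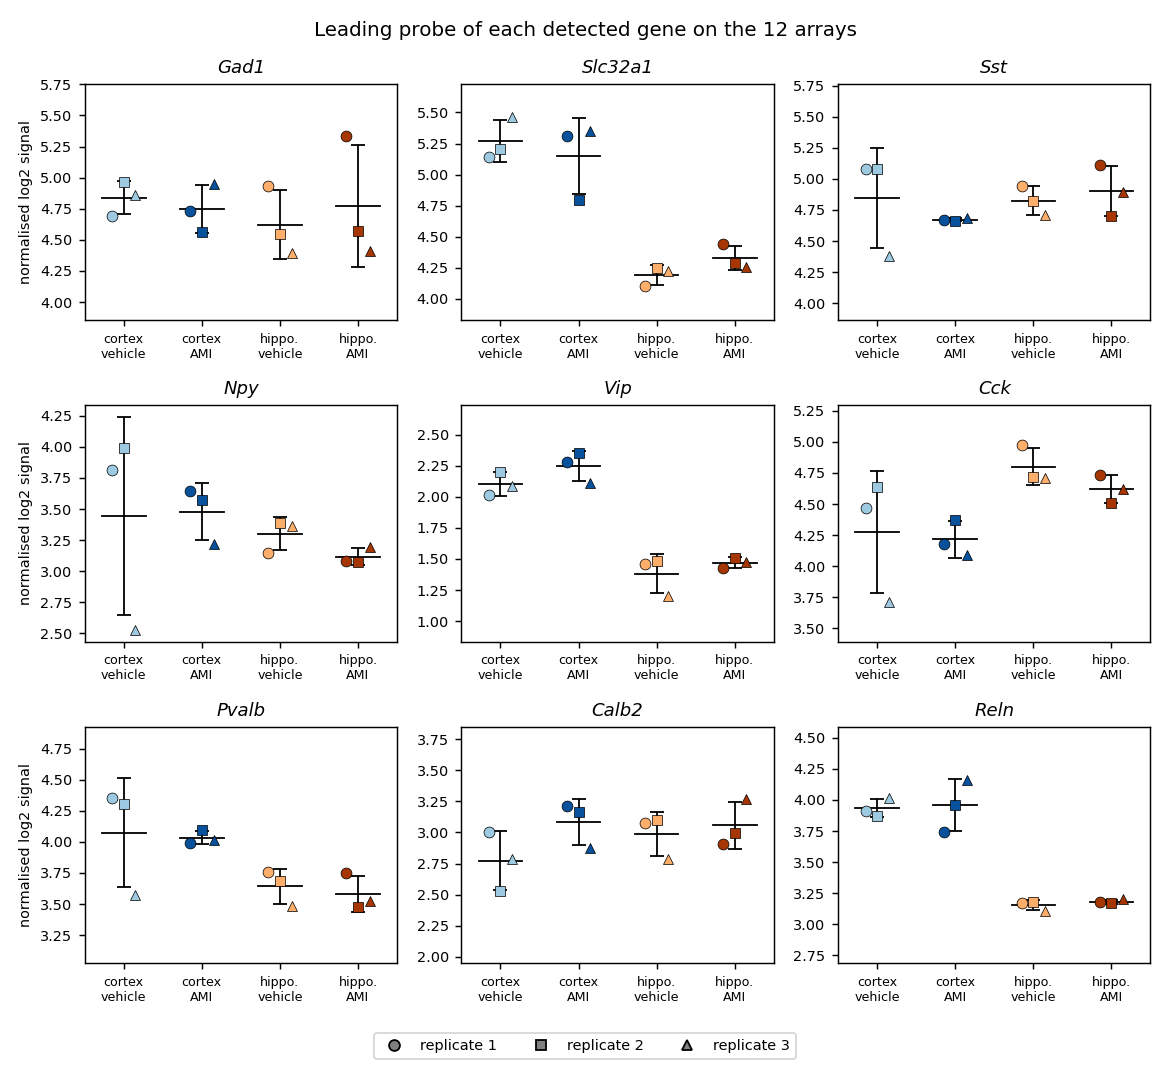
Normalised log2 signal of the leading probe of each of the 9 detected genes, 1 panel per gene, for 3 arrays per group; bars are group means with SD, the marker shape is the replicate number, and every vertical axis spans the same range. Slc32a1, Vip and Reln lay lower on all 6 hippocampal arrays than on any cortical array, and cortical vehicle replicate 3 lay apart for Npy, Cck, Pvalb and Sst.

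The hippocampus and the cortex differed in 5 of the 9 genes at an adjusted p under 0.05, where 43.1% of the 13677 probes tested did so. Slc32a1, Reln, Vip and Pvalb were lower in the hippocampus and Cck was higher, against 18.7% of all probes lower and 24.4% higher. Sst, Gad1, Npy and Calb2 did not pass the test. The median difference of the 9 genes was -0.25 log2 units, and that of all probes 0.03. This depended on the scale: with each array centred on its median, the values were 0.19 and 0.19. The hippocampal and cortical arrays came as separate tables from different scanner software versions, so that tissue and these processing differences cannot be told apart.

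Slc32a1, the vesicular GABA transporter, had cortical levels of 4.80 at the lowest, a median of 5.26 and 5.46 at the highest. In the hippocampus its levels ran from 4.10 through a median of 4.25 to 4.44. The groups did not overlap, which held for 22.3% of all probes. The hippocampal level was 0.517 of the cortical level, a log2 difference of -0.95 ± 0.10 (SE, n = 6 arrays per tissue, adjusted p = 1.07e-05, limma). Within vehicle arrays the difference was -1.08 and within AMI arrays -0.82.

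Gad1, the decarboxylase that precedes this transporter in the pathway, did not differ in the same way. Its levels ran from 4.56 to 4.96 in the cortex, with a median of 4.80, and from 4.39 to 5.33 in the hippocampus, with a median of 4.56. The tissues overlapped, with a difference of -0.10 ± 0.15 (SE, adjusted p = 0.638, limma) and a 95% interval of -0.42 to 0.22. The second Gad1 probe differed by 0.06 ± 0.15. On the signals as deposited, the log2 ratio of Slc32a1 to Gad1 within an array, which needs no normalization between arrays, was 0.23 to 0.54 on the 6 cortical arrays and -0.84 to -0.17 on the 6 hippocampal arrays. Within the hippocampus the ratio followed the replicate number, at -0.84 and -0.79 in replicate 1, -0.33 and -0.33 in replicate 2 and -0.17 and -0.18 in replicate 3. The transporter and the decarboxylase thus shifted unequally between the tissues, and their ratio did not overlap.

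Among the peptide genes, Vip was lower in the hippocampus. Its levels were 2.01 to 2.35 in the cortex, median 2.16, and 1.20 to 1.51 in the hippocampus, median 1.47, without overlap. The difference was -0.75 ± 0.07 log2 units, or 0.596 of the cortical level (adjusted p = 5.70e-06, limma). Its signals, 269.9 to 557.9 in the hippocampus, stood on a background of 52.2 to 63.3, the median of undetected probes per hippocampal array, which was not subtracted. With background correction (neqc) the difference was -0.89.

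Cck was the member that was higher in the hippocampus. Its levels were 4.51 to 4.97 there, median 4.71, and 3.71 to 4.64 in the cortex, median 4.28. These ranges overlapped, through cortical vehicle replicate 2 at 4.64. The difference was 0.47 ± 0.13 log2 units, a ratio of 1.38 (adjusted p = 0.0136, limma). It was 0.53 among vehicle arrays and 0.41 among AMI arrays, and neither passed the test on its own (adjusted p = 0.0600 and 0.132, limma).

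Sst and Npy overlapped between the tissues. Sst had levels of 4.38 to 5.08 in the cortex and 4.71 to 5.11 in the hippocampus, and a difference of 0.10 ± 0.12 with a 95% interval of -0.15 to 0.36. Npy had levels of 2.53 to 3.99 in the cortex and 3.08 to 3.39 in the hippocampus. Its difference was -0.25 ± 0.20, with a 95% interval of -0.68 to 0.18 (adjusted p = 0.336, limma). Cortical vehicle replicate 3, at 2.53, set the lower end of the cortical range. Without it the Npy difference was -0.48, in a fit that called 5626 of the 13553 probes tested. That array was left out after its Npy value was seen, so this fit is no test of Npy and its p-value is not given.

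Of the calcium-binding proteins, Pvalb was lower in the hippocampus and Calb2 was not called. Pvalb levels were 3.47 to 3.76 in the hippocampus, median 3.60, and 3.57 to 4.35 in the cortex, median 4.05. Only cortical vehicle replicate 3, at 3.57, reached the hippocampal range. The difference was -0.44 ± 0.12, or 0.736 of the cortical level (adjusted p = 0.0105, limma). Calb2 differed by 0.09 ± 0.10 by its leading probe and by -0.21 ± 0.17 by the second, with overlapping ranges for both.

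Reln had the narrowest range of any member in the hippocampus. Its 6 hippocampal levels lay between 3.11 and 3.20, median 3.17, and its 6 cortical levels between 3.75 and 4.16, median 3.94. No level was shared. The difference was -0.78 ± 0.07, or 0.584 of the cortical level (adjusted p = 4.30e-06, limma), and was -0.78 among vehicle arrays and -0.77 among AMI arrays.

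Within vehicle arrays alone, 3 of the 9 genes passed the test between tissues, where 25.1% of probes did, and within AMI arrays 3 of 9, where 27% did. These were Slc32a1, Vip and Reln in both. The scale on which arrays were compared mattered here: centring each array on its median moved the median difference of all probes from 0.03 to 0.19 and the share of higher calls from 56.6% to 84.7%. On that scale Vip stayed lower (-0.47, adjusted p = 0.0144, limma) and Cck higher (1.03), Slc32a1 (-0.33, adjusted p = 0.136) and Reln (-0.29, adjusted p = 0.165) were no longer called, Pvalb (0.05) changed sign, and Gad1 (0.50) and Sst (0.71) were called higher. Ratios to Gad1 on the same array were added after the data were seen. They also fall where Gad1 is higher, as it was in the hippocampus on the median-centred scale. By these ratios Vip and Reln lay lower on every hippocampal array. The log2 ratios were -3.69 to -3.28 against -2.60 to -2.30 for Vip and -2.03 to -1.35 against -1.03 to -0.63 for Reln. For Pvalb these ratios overlapped, at -1.495 to -0.94 and -1.14 to -0.33.

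**Figure D2:**
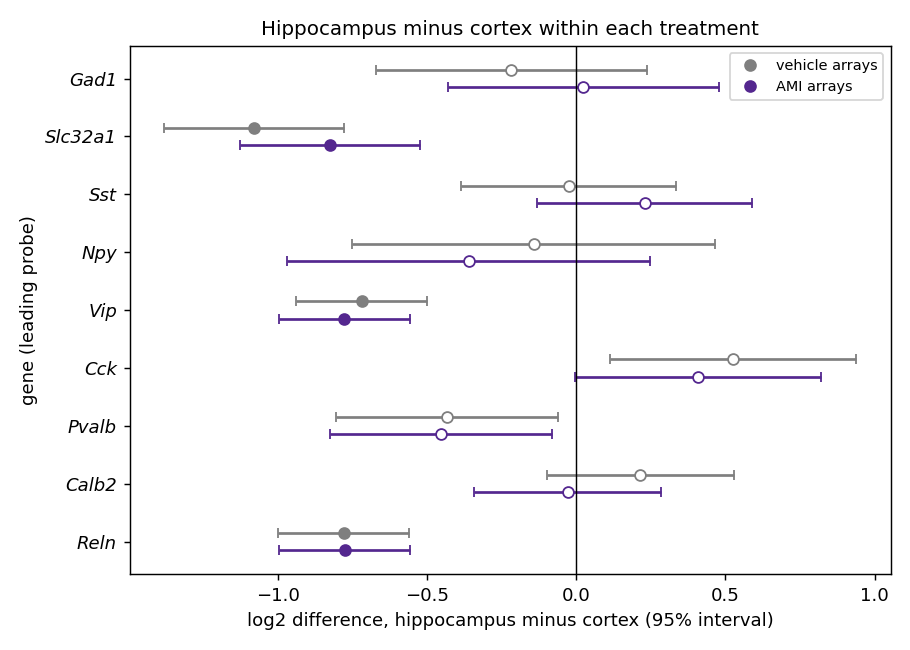
Log2 difference of the hippocampus minus the cortex for the leading probe of each gene, separately for vehicle arrays (grey) and AMI arrays (purple), with 95% intervals from limma, n = 3 per group; filled points passed an adjusted p of 0.05. Slc32a1, Vip and Reln were filled and below 0 in both treatments, and the intervals of Gad1, Sst, Npy and Calb2 crossed 0 in both.

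AMI was compared with vehicle within each tissue to see whether the drug altered these genes. In the hippocampus 0 of the 9 genes passed an adjusted p of 0.05, as did 0 of the 13163 probes tested (0%), and 0 of 9 had an unadjusted p under 0.05, against 309 probes (2.35%, limma). In the cortex 0 of 9 passed, with 0 of 12944 probes (0%), and 0 of 9 had an unadjusted p under 0.05 at the leading probe, against 813 probes (6.28%, limma). The median difference of the 9 genes was 0.07 in the hippocampus and -0.04 in the cortex, against 0.01 and 0.02 for all probes. The intervals bound what could have been missed, from -0.16 to 0.22 for hippocampal Reln, the tightest in that tissue, to -0.74 to 0.81 for cortical Npy, the widest.

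**Figure D3:**
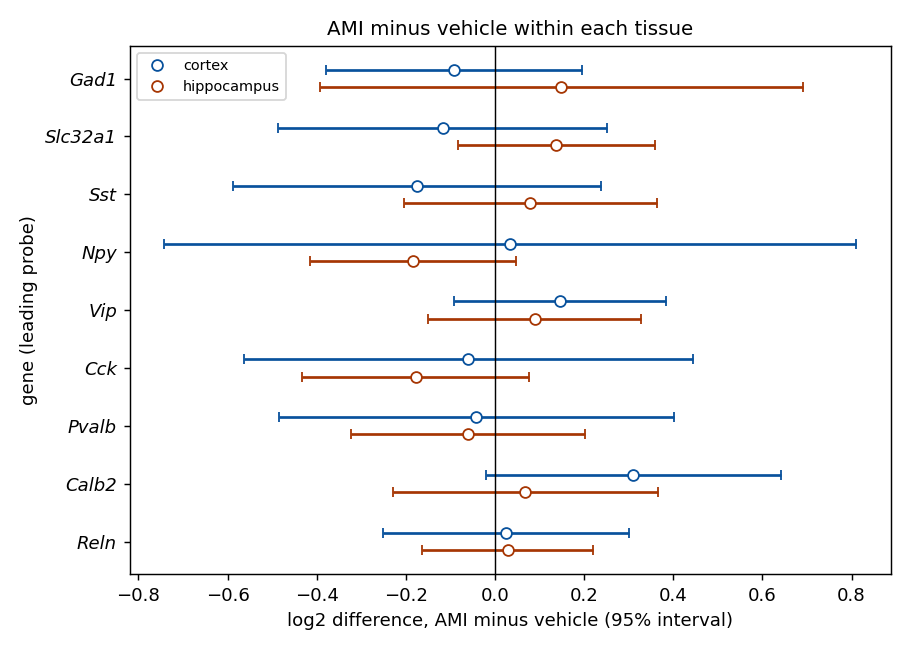
Log2 difference of AMI minus vehicle for the leading probe of each gene in the cortex (blue) and the hippocampus (brown), with 95% intervals from limma, n = 3 arrays per group. All points are open, since none passed an adjusted p of 0.05, and all 18 intervals cross 0.

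In the hippocampus the GABA genes had small differences beside their spread. Slc32a1 levels were 4.44, 4.29 and 4.26 with AMI and 4.10, 4.25 and 4.23 with vehicle. All 3 AMI arrays were above the 3 vehicle arrays, by narrow margins, and Slc32a1 was the only 1 of the 9 genes whose groups did not overlap, where 7.89% of probes did not. The difference was 0.14 ± 0.10 (SE, adjusted p = 0.9996, limma). Gad1 levels were 5.33, 4.57 and 4.41 with AMI and 4.93, 4.55 and 4.39 with vehicle. The treatments overlapped, and replicate 1 was high in both on this normalized scale. Those arrays had the lowest mean signals of the tissue, 271.5 with AMI and 318.6 with vehicle, the others 447.4 to 567.0. Their deposited Gad1 signals were 3475 and 3223, below those of the other hippocampal arrays (3846 to 6473). These signals are not adjusted for the mean signal of the array. Within arrays, the log2 ratio of every other detected member to Gad1 was at its hippocampal lowest on AMI replicate 1. It was -0.84 there for Slc32a1, -0.21 for Sst and -0.56 for Cck. Whether the scaling of each array made replicate 1 high was not tested. The Gad1 difference was 0.15 ± 0.24, and 0.22 ± 0.25 by the second probe. Without AMI replicate 1 these became -0.13 and -0.06.

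After group means were removed, hippocampal AMI and vehicle arrays of the same number correlated across probes at 0.62, 0.30 and 0.30. AMI replicate 3 correlated with vehicle replicate 2 at 0.29, and AMI replicate 2 with vehicle replicate 3 at 0.17. Only replicate 1 was thus set apart by number, and pairing of the others is uncertain. By number, Gad1 was higher with AMI in 3 of 3 pairs (by 0.40, 0.03 and 0.02), and so was Slc32a1 (by 0.34, 0.04 and 0.03). In both genes the first pair held most of the difference. Cck was lower in 3 of 3 pairs (-0.24, -0.21 and -0.09) and Npy in 3 of 3 (-0.06, -0.31 and -0.17). The share of all probes with 3 of 3 pairs in 1 direction is not given here. With the number as a block, no member passed the adjusted test, and the smallest adjusted p was 0.609, for the second Gad1 probe, with Cck at 0.616 and Npy at 0.617 (limma).

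The peptide genes of the hippocampus overlapped between treatments. Cck levels were 4.74, 4.51 and 4.62 with AMI and 4.97, 4.71 and 4.71 with vehicle, a difference of -0.18 ± 0.11. Npy levels were 3.09, 3.08 and 3.19 with AMI and 3.15, 3.39 and 3.37 with vehicle, also a difference of -0.18, ± 0.10. Sst (0.08), Vip (0.09), Pvalb (-0.06), Calb2 (0.07) and Reln (0.03) lay closer to 0. Oligodendrocyte markers, whose mean level was 3.41 to 3.79 with AMI and 3.76 to 4.24 with vehicle, were lower in 6 of 6 genes with 0 called. Of these 6, 3 had an unadjusted p under 0.05 (limma), as did 2.35% of all probes. Choroid plexus markers had a mean level of 0.17 to 0.54 with AMI and of 0.32, 0.58 and 2.97 with vehicle, replicate 3 being the highest, and 5 of 5 tested were lower with AMI with 0 called (median -0.74). That vehicle array was also the lowest of the 6 for Gad1, Vip, Calb2 and Reln. The part of either cell type in these values was not tested.

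In the cortex Calb2 had the largest difference. Levels were 3.21, 3.16 and 2.87 with AMI and 3.00, 2.53 and 2.79 with vehicle, which overlapped, and the difference was 0.31 ± 0.14 (adjusted p = 0.784, limma). The second Calb2 probe gave 1.15, 1.03 and 0.53 with AMI against 0.47, 0.03 and 0.75 with vehicle. That is a difference of 0.49 ± 0.21 (adjusted p = 0.781, limma), the only member probe with an unadjusted p under 0.05 in either tissue. Vip levels were 2.28, 2.35 and 2.11 with AMI and 2.01, 2.20 and 2.09 with vehicle, a difference of 0.15 ± 0.10. The differences of Gad1 (-0.09, and 0.05 by the second probe), Slc32a1 (-0.12) and Reln (0.02) were smaller than their standard errors.

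Cortical Npy, Sst, Cck and Pvalb depended on a single array. Npy levels were 3.65, 3.57 and 3.22 with AMI and 3.82, 3.99 and 2.53 with vehicle. The vehicle group held both the highest level and the lowest, the latter in replicate 3, and the difference was 0.03 ± 0.34. Sst levels were 4.67, 4.66 and 4.69 with AMI and 5.08, 5.08 and 4.38 with vehicle, a difference of -0.17 ± 0.18. Cck levels were 4.18, 4.37 and 4.09 with AMI and 4.47, 4.64 and 3.71 with vehicle, a difference of -0.06 ± 0.22. Pvalb showed the same layout, with 3.99, 4.09 and 4.02 with AMI and 4.35, 4.30 and 3.57 with vehicle, a difference of -0.04 ± 0.19. In each of the 4 genes vehicle replicates 1 and 2 lay above all 3 AMI arrays and vehicle replicate 3 below them.

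Without cortical vehicle replicate 3, all 3 AMI arrays lay below both remaining vehicle arrays in these 4 genes, as follows from the levels above. Because these genes singled out that array, the fit without it is no test of them. Their p-values from it are not given. In that fit Sst differed by -0.41 ± 0.10, Npy by -0.43 ± 0.14, Cck by -0.34 ± 0.12 and Pvalb by -0.29 ± 0.10. The AMI arrays lay wholly below the vehicle arrays for 13.1% of the 12659 probes then tested, and 0 of these probes passed the adjusted test. Slc32a1 (-0.02) and Gad1 (-0.08) stayed near 0. That array was singled out after its values were seen, and it also had the highest mean level of oligodendrocyte markers among the cortical arrays, 4.56, where the others ran from 3.97 to 4.42. Means over some other neuronal lists lay in a like order, and others did not. The glutamatergic markers were at 3.02, 3.03 and 2.72 with vehicle (replicate 3 last) and 2.89, 2.89 and 2.73 with AMI. The granins and peptide processing enzymes were at 3.14, 3.16 and 3.00 with vehicle and 3.08, 3.01 and 3.05 with AMI. Pan-neuronal markers lay otherwise, at 4.97, 5.01 and 5.03 with vehicle and 5.04, 4.75 and 5.20 with AMI. So did interneuron transcription factors (0.35, 0.44 and 0.37 against 0.51, 0.56 and 0.29). Other neuropeptide precursors also lay otherwise (0.55, 0.37 and 0.27 against 0.42, 0.37 and 0.22). Striatal markers moved with treatment as well: their mean level was 1.501 to 1.64 on AMI and 1.89 to 1.98 on vehicle arrays of the cortex, and 5 of 5 were lower with AMI, Rgs9 at a log2 difference of -0.63 and Drd2 at -0.54, with 0 of 5 called. Of the 5 striatal markers, 2 had an unadjusted p under 0.05 (limma), as did 6.28% of all probes, with all 6 cortical arrays in the fit. The part of striatal tissue in the cortical values was not tested.

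**Figure D4:**
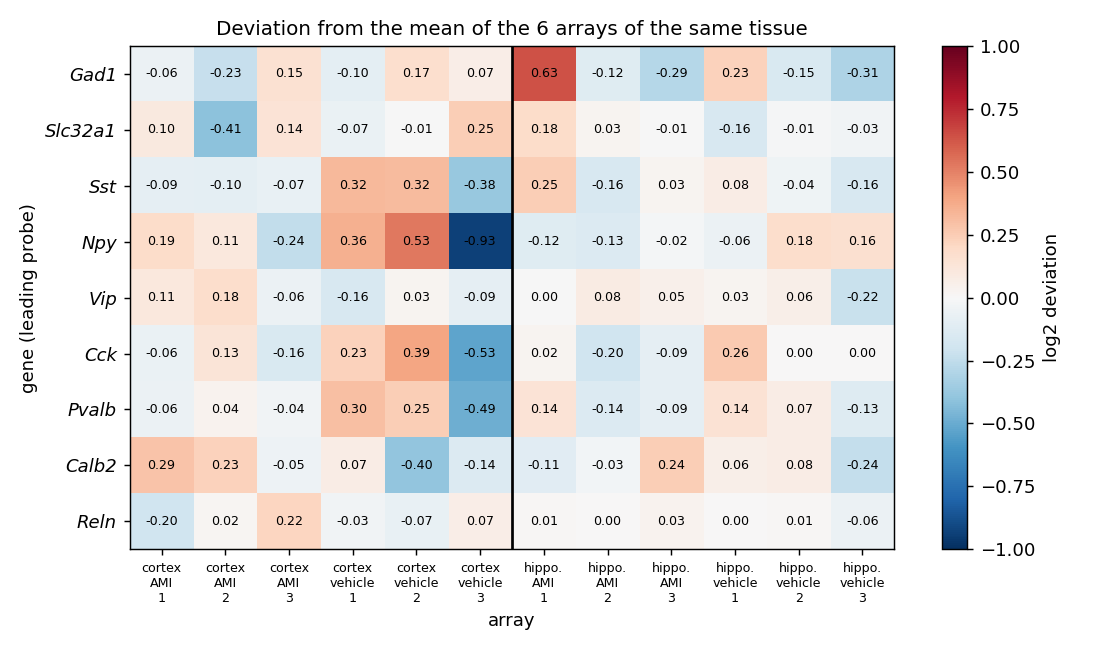
Deviation of each gene's leading probe from the mean of the 6 arrays of the same tissue, in log2 units, with 1 column per array and 1 row per gene; red is above and blue below the tissue mean. Cortical vehicle replicate 3 was the lowest cortical array for Npy (-0.93), Cck (-0.53), Pvalb (-0.49) and Sst (-0.38). Hippocampal AMI replicate 1 was the highest for Gad1 (0.63) on this normalized scale. Its deposited Gad1 signal was not the highest, on the hippocampal array of lowest mean signal.

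The effect of AMI was also compared between the tissues. Of the 9 genes, 0 passed the interaction test, as did 0 of 12430 probes (0%), with 377 probes (3.03%) and 0 of 9 genes at an unadjusted p under 0.05 (limma). The largest interaction among leading probes was 0.25 ± 0.20 for Slc32a1 and 0.25 ± 0.24 for Sst, both higher in the hippocampus. Its interval ran from -0.17 to 0.68 for Slc32a1 and from -0.26 to 0.76 for Sst, so differences of that size were not detectable with 3 arrays per group.

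Some members varied together across arrays of the same group, and part of this rested on cortical vehicle replicate 3. After the 4 group means were removed, the correlation over the 12 arrays was 0.97 for Sst with Pvalb, 0.93 for Cck with Pvalb, 0.91 for Sst with Cck, 0.85 for Npy with Cck and 0.78 for Npy with Sst. Over the 11 arrays without that replicate, a set chosen after its values were seen, Sst with Pvalb gave 0.89, Cck with Pvalb 0.66 and Sst with Cck 0.62. Npy no longer followed the others, with 0.12 for Cck and -0.22 for Sst. Other pairs rose: Gad1 with Sst from 0.37 to 0.79, Gad1 with Pvalb from 0.28 to 0.71 and Cck with Vip from 0.29 to 0.51. Above 0.5 were 6 of the 36 pairs over the 12 arrays and 6 over the 11. Over the 12 arrays, 16 of the 36 pairs correlated below 0, among them Cck with Slc32a1 (-0.61), Npy with Reln (-0.54) and Calb2 with Gad1 (-0.41). These points share array, hybridisation and tissue piece, and are a description.

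The spread within groups differed by gene and tissue. In the cortex, with vehicle replicate 3 included, the residual SD of Npy, 0.59, was above that of 99.4% of probes, and those of Cck (0.36), Pvalb (0.31) and Sst (0.29) were above 96.1%, 93.1% and 90.8%. In the hippocampus the SD of Npy was 0.10, above 29.7% of probes. Gad1 was reversed, with 0.40 in the hippocampus, above 97.5% of probes, and 0.17 in the cortex, above 63.4%. Hippocampal replicate 1, the highest for Gad1 in both treatments, was also the array of lowest mean signal in each. Reln had an SD of 0.03 in the hippocampus, above 0.433% of probes, and 0.16 in the cortex.

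Genes outside the list that varied most like the members were sought among 8508 genes, by correlation over the 12 arrays after group means were removed. Gad1 was most like Aak1, a kinase of clathrin-mediated endocytosis (0.98), and Ubqln1 (0.98). Slc32a1 was most like Stx1a, a presynaptic fusion protein (0.95), and 1810008A18Rik (0.94). For Sst these were Ndufs7, a subunit of respiratory complex I (0.97), and Rpl36al (0.97), for Cck Ndufa1, another such subunit (0.98), and Erh (0.97), for Npy 1110008P14Rik (0.99) and Polr2j (0.98), and for Pvalb Deb1 (0.97) and Psmb1, a proteasome subunit (0.96). Vip was most like Ly6g6e (0.93) and 1110001A07Rik (0.92), Calb2 like Fcgr3 (0.96) and Edg8 (0.93), and Reln like Rhot1 (0.88) and Rab35 (0.86). Without cortical vehicle replicate 3 these correlations were 0.78 to 0.99, the lowest for Pvalb with Psmb1 and Npy with Polr2j (0.79). Values without hippocampal replicate 1, where Gad1 was high, are not given.

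The 100 bases before the start site are shown for the 4 neuropeptide genes, to show whether each holds the element described next. Several peptide genes are known targets of CREB, a factor that binds the palindrome TGACGTCA and its shorter form TGACG, or CGTCA on the other strand. Sequences are from RefSeq (GRCm38.p6), where 9 of the 10 members had an entry and Calb2 did not. They run 5′ to 3′ along the gene, with TGACG or CGTCA in capitals.
Sst, chr16:23890845-23890944, minus strand: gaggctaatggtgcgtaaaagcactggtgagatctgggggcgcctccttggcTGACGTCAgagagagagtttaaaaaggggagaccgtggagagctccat
Vip, chr10:5639118-5639217, plus strand: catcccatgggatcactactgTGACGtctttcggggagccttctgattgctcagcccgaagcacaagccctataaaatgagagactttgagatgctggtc
Cck, chr9:121495695-121495794, minus strand: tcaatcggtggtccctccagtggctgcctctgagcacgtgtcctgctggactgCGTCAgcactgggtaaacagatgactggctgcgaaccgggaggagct
Npy, chr6:49822610-49822709, plus strand: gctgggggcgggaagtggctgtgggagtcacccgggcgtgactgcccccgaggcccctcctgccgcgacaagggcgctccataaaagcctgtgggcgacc
Sst held the full palindrome, found in 1.15% of the 32851 promoters over the same window. Vip and Cck held 1 short match each, found on either strand in 10.5% of promoters together with the palindrome, and these letters were not in the Npy window. The window of Gad2 also held 1 short match, and those of Gad1, Slc32a1, Pvalb and Reln held 0. A match is a description of letters and not a binding site.

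Other genes of GABA and peptide signalling were read from lists, 60 tested genes in all between tissues, 56 for AMI in the hippocampus and 58 in the cortex. None of these passed the adjusted test for AMI in either tissue, and 1 in each had an unadjusted p under 0.05 (limma). Of all probes 2.35% did so in the hippocampus and 6.28% in the cortex. In the hippocampus that was Slc12a2, a chloride importer (-0.25 ± 0.09). In the cortex it was Npy1r, a receptor of neuropeptide Y, at 0.37 ± 0.09 (adjusted p = 0.756, limma). Its AMI arrays all lay above its vehicle arrays, and the groups did not overlap for 12.2% of cortical probes.

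Between the tissues 36 of the 60 genes were called, 15 higher and 21 lower in the hippocampus, with a median of -0.05 against 0.03 for all probes. Of all probes 43.1% were called, 24.4% higher and 18.7% lower, and the shares in the shorter lists are read against that. Among receptors of the member peptides 4 of 6 were called. Cckbr, the brain cholecystokinin receptor, was lower in the hippocampus (-2.54), opposite to Cck. Npy2r, a presynaptic neuropeptide Y receptor, was higher by 1.89 ± 0.09 and Npy5r by 0.30.

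Other neuropeptide precursors were called in 9 of 13, with 7 lower. Pdyn, the prodynorphin gene, was lower (-1.76), as were Tac1, which encodes substance P (-1.62), and Cartpt (-1.33), and Grp, gastrin-releasing peptide, was higher by 1.81. Pdyn and Tac1 are also made by striatal projection neurons, and the striatal markers given above were lower in the hippocampus too. Of the granins and peptide processing enzymes 6 of 9 were called, led by Pcsk1n (-0.45) and Vgf (-0.42).

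GABA synthesis, transport and breakdown genes were called in 3 of 7, near the share of all probes. Slc6a13, a GABA transporter of the meninges, was lower (-1.12), while Glul, glutamine synthetase of astrocytes, was higher by 0.53. Of interneuron transcription factors 6 of 9 were called, with Satb1 (-0.64) and Dlx1 (-0.39) lower and Maf (0.37) higher beside Prox1. Other interneuron subtype genes were called in 4 of 11, also no more than that share, among them Htr3a, the ionotropic serotonin receptor (0.63), Cplx1 (-0.71) and Btbd11 (-0.46). Gabbr1 (0.39) and Slc12a5, the neuronal chloride exporter (0.24), were higher and Slc12a2 (-0.29) lower, 3 of 3 called. For reelin signalling, Dab1, its intracellular adaptor, was higher by 0.43 while Reln itself was lower, 1 of 2 called.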

How the data were processed

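RNA of each sample was hybridised to Illumina MouseRef-8 BeadChips. The authors deposited the mean bead signal per probe as a linear intensity, not normalized and with background left in. Beside each signal stands a p-value of detection, as the scanner software computed it (BeadStudio 3.4 for the hippocampus and GenomeStudio 1.1.1 for the cortex, per the submitters' processing notes). Each tissue's 6 arrays came as a separate table of 25697 probes.

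Signals were log2 transformed, z normalized within each array over all probes, as in the study's methods, and put on one scale by the average SD over the 12 arrays. A probe entered a test when 3 or more of the tissue's 6 arrays detected it at a cutoff of 0.05 (in both tissues for the interaction, in either for tissue comparisons). Groups, taken from the sample titles, were compared by linear models (lmFit, eBayes) in limma 3.58.1 under R 4.3.3, with Benjamini-Hochberg adjustment over all tested probes and a threshold of 0.05. In tissue comparisons and the interaction all 12 arrays entered 1 fit. A gene is represented by its probe with the highest mean log2 signal. The fits were tested on simulated data. The number of arrays limits the precision. Tables and figures used Python 3.11.15, pandas 2.3.3 and matplotlib 3.10.9.

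Members and gene lists were chosen with earlier results of these data known. Genes named are all members, for each list its largest change and up to 4 past the threshold, and 2 genes most like each member. Pairing was checked by correlating deviations from group means. AMI and vehicle arrays of the same number correlated at 0.30 to 0.62 in the hippocampus, and at -0.06, 0.33 and 0.34 in the cortex. Those of different numbers correlated at -0.48 to 0.29 in the hippocampus and at -0.42 to 0.27 in the cortex. As alternatives, arrays were quantile normalized, centred on their medians or processed with neqc (offset 16). The detection filter was dropped or tightened to 0.01 on every array. Fits were also run with trended robust variances, a replicate block, all 12 arrays in one fit, and leaving out each array. An unpaired Student's t-test, named in the study's general statistics and not in its array methods, was run as well. The ratio to Gad1, and correlations without cortical vehicle replicate 3, were added after seeing the data.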

Additional observations from a re-analysis of the deposited data

How the results depend on the processing

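The count of member genes called for AMI, 0 in each tissue and 0 for the interaction, was 0 under every alternative run, the replicate block included (0 of 9). The replicate block raised the number of hippocampal probes with an unadjusted p under 0.05 from 309 to 1063. An unpaired Student's t-test put 483 hippocampal and 827 cortical probes under an unadjusted 0.05, with 0 member genes among them by their leading probe. After Benjamini-Hochberg adjustment it left 0 probes under 0.05 in either tissue. The study selected its array genes otherwise, by z-ratio, p-value and a looser false discovery rate, followed by ANOVA. That selection was not repeated here, so these counts do not bear on its gene lists. Between tissues the count of 5 ranged from 4 (median centring) to 6. Within vehicle arrays it was 1 with median centring, 4 with the replicate block and 3 to 5 leaving out each array, and within AMI arrays 1, 4 and 3 to 6, against 3 in each; the counts of 5 and 6 were those without cortical vehicle replicate 3. Median centring moved the share of higher calls to 87.3% from 59.7% in vehicle arrays and to 84.0% from 55.8% in AMI arrays.

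Of single values, those whose sign changed were mostly small. For AMI in the hippocampus Pvalb was 0.059 with median centring. For AMI in the cortex, quantile normalization, median centring and neqc gave 0.012, 0.054 and 0.012 for Gad1, 0.0015, 0.039 and 0.0018 for Slc32a1, 0.029, 0.073 and 0.032 for Cck, and 0.020, 0.079 and 0.022 for Pvalb. Between tissues they gave 0.028, 0.50 and 0.027 for Gad1, and median centring 0.19 for Npy and 0.054 for Pvalb (0.064 in vehicle and 0.044 in AMI arrays). Leaving out each array gave, for AMI in the hippocampus, -0.13 to 0.33 for Gad1 and -0.055 to 0.43 for its second probe, -0.025 to 0.18 for Sst, -0.037 to 0.14 for Calb2 and -0.0060 to 0.44 for its second probe, and -0.0010 to 0.14 for Vip. In the cortex it gave -0.43 to 0.31 for Npy, -0.34 to 0.12 for Cck, -0.29 to 0.10 for Pvalb, -0.22 to 0.059 for Slc32a1, -0.079 to 0.13 for Reln and -0.053 to 0.12 for the second Gad1 probe. Between tissues it gave -0.014 to 0.16 for Sst and -0.077 to 0.14 for the second Gad1 probe. The cause was not tested.

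With 3 arrays per group the intervals are wide, undetected probes give no level, and unsubtracted background shrinks differences of dim probes such as Vip and the second Calb2 probe. Tissue cannot be told apart from the separate tables and software versions.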
